A study of Mus musculus with 16 samples.

Results

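The Pax family is the group of 9 genes Pax1 to Pax9, and its contacts were read from promoter capture Hi-C, in which chromatin is cut with the restriction enzyme HindIII, ligated, and enriched for fragments that carry promoters. A promoter fragment chosen for capture is called a bait, and a fragment ligated to it is its other end. The members are all contacts whose bait carries a Pax name, which gave 197 contacts from 9 baits, 1 for each gene, out of 260860 contacts and 20017 baits in the deposited table. Another 20 contacts list a Pax fragment as the other end of a different bait and are described apart.

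Embryonic stem cells (ESC, D0) were kept in 2i/Lif, and epiblast-like cells (EpiLC) were made from them by differentiation, taken at D2. The 4 mouse lines were DNMT_KO, which lacks the DNA methyltransferases Dnmt1, Dnmt3a and Dnmt3b, its parent DNMT_WT, TET_KO, which lacks the 5-methylcytosine oxidases Tet1, Tet2 and Tet3, and its parent TET_WT. The labels list 16 samples, 2 for each of the 8 combinations of line and stage, and the deposited table holds 1 score column for each combination. Each genotype is 1 line, so that genotype and line cannot be told apart. The error below comes from how far the stage difference varies between the 4 lines, and not from replicates. The model used, limma, draws it towards the variation typical of all features fitted. A ± value is therefore not the spread of 1 gene or contact between its own 4 lines. The comparisons of a line with another use this same error. RNA was not measured in these libraries, so the identity of the cells rests on the labels, and nothing is said here of how strongly a Pax gene was transcribed.

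Pax proteins are transcription factors that bind DNA through a paired domain and act in the patterning of the embryo. They fall into 4 classes: Pax1 and Pax9 have no homeodomain, Pax2, Pax5 and Pax8 have part of it, and Pax3, Pax7, Pax4 and Pax6 have a whole one, which Pax3 and Pax7 combine with an octapeptide motif. Most of them are silent or nearly so in pluripotent cells, where the promoters of such developmental genes are typically rich in CpG and bound by Polycomb complexes, which are known to bring such promoters together in the nucleus.

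Of the 9 genes, 7 had an entry in the RefSeq promoter set for GRCm38.p6, with 10 windows of 250 bases before a start site; no entry was found for Pax3 and Pax4. The windows are shown for 3 members because they span the range of the family on the captured fragments and show where a bait ends. CG dinucleotides, the sites of DNA methylation, are in capitals in the Pax2 and Pax8 windows, and the HindIII site AAGCTT is in capitals in the Pax9 window.

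Pax2 (chr19:44756656-44756905, + strand, GRCm38.p6): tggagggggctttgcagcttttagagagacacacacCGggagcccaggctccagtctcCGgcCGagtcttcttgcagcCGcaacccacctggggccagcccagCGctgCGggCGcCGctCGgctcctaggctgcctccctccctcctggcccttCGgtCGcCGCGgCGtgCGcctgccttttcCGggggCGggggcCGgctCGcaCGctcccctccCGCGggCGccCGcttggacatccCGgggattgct

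Pax8 (chr2:24475600-24475849, - strand, GRCm38.p6): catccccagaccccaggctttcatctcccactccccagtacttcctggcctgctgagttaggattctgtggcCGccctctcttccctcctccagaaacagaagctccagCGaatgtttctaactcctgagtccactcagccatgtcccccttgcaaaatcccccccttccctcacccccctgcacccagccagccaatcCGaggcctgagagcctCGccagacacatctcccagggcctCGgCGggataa

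Pax9 (chr12:56695221-56695470, + strand, GRCm38.p6): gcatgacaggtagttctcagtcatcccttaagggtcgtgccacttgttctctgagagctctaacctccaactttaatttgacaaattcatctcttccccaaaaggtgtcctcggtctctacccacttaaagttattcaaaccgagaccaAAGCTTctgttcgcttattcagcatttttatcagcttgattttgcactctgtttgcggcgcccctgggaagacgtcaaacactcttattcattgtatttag

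The Pax2 window holds 25 CG dinucleotides, more than 89.3% of all 32851 windows of this length hold, and it lies inside both the gene and the captured fragment. The Pax8 window holds 6, which is also the median of all windows. Other windows on their baits held 20 (a further Pax2 start), 19 (Pax5), 15 (Pax6) and 13 (Pax7). Windows outside their baits held 10 (Pax1), 15 (a further Pax6 start) and 5 (Pax2, just before the start of the annotated gene). In the Pax9 window the HindIII site begins at base 150, and its first base, 56695370, is the last base of the captured fragment, so that this start site lies on the next fragment while the start of the annotated gene lies just before the first base of the bait. HindIII sites were present in 6.22% of all windows.

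Each value is a CHiCAGO score, which measures how far the reads of a contact exceed those anticipated from distance and noise at that bait. It is not a contact frequency, and 5 is the usual calling threshold. All 197 contacts reach 5 in at least 1 column, since the table lists contacts that do. Scores are given below in the order DNMT_WT, DNMT_KO, TET_WT, TET_KO, and distances run from the bait to the other end, negative towards lower coordinates.

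The number of contacts differed widely within the family. Pax9 had 52 contacts, more than 97.5% of baits, and Pax3 had 47, more than 96.4%. Pax1 had 30, Pax4 26, Pax2 24, Pax6 and Pax7 7 each, Pax5 3 and Pax8 1, beside a median of 8 per bait. Most lay far from the promoter: the median distance of the Pax contacts on the same chromosome was 408 kb, against 275 kb for all such contacts. Contacts to higher coordinates numbered 139 and those to lower coordinates 41, and the remaining 17, all of Pax3, joined another chromosome.

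Counted at a score of 5 or more, the family had 52, 31, 38 and 59 contacts in the ESC columns and 58, 78, 57 and 85 in the EpiLC columns. The EpiLC column was above the ESC column in each of the 4 lines, as it was over all listed contacts. The total over columns went from 180 to 278, a ratio of 1.54 beside 1.06 over all listed contacts. By gene the total rose from 24 to 67 at Pax3, from 16 to 40 at Pax4 and from 26 to 44 at Pax1. It also rose from 76 to 85 at Pax9, and at Pax5, Pax6 and Pax7, to 6 at most. It fell from 28 to 25 at Pax2 and from 2 to 1 at Pax8. Of the 197, 91 reached 5 in EpiLC columns only (46.2%, beside 29.3% of all contacts) and 33 in ESC columns only (16.8%, beside 27.5%). Without the Pax3 contacts that joined another chromosome these shares were 41.7% and 17.8%. There were 101 that reached 5 in 1 column only (51.3%, beside 44%) and 8 that reached it in all 8 columns (beside 6.7% of all contacts). The ratio was 1.35 without Pax3, and 1.10 at a score of 10 or more. No test was run on these counts.

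The test of stage did not single out a Pax promoter. For each promoter with at least 3 contacts scored in every column, the mean of asinh(score) was compared between stages with the line as a block, in limma, over 15677 promoters; on this scale a difference of 0.69 is about a doubling of a high score. None of the 7 Pax promoters tested passed an adjusted p of 0.05, while 8.87% of all promoters did, and 1 of the 7 (Pax5) had an unadjusted p under 0.05, as had 27.6% of all promoters. The difference of EpiLC minus ESC was above 0 at all 7, with a median of 0.18 beside -0.01 over all promoters, of which 48.2% were above 0. At no Pax promoter did the 4 EpiLC columns all lie above or all below the ESC columns, a separation seen at 13.6% of promoters. Pax7, with 2 contacts scored throughout, and Pax8, with 1, were not tested.

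**Figure D1:**
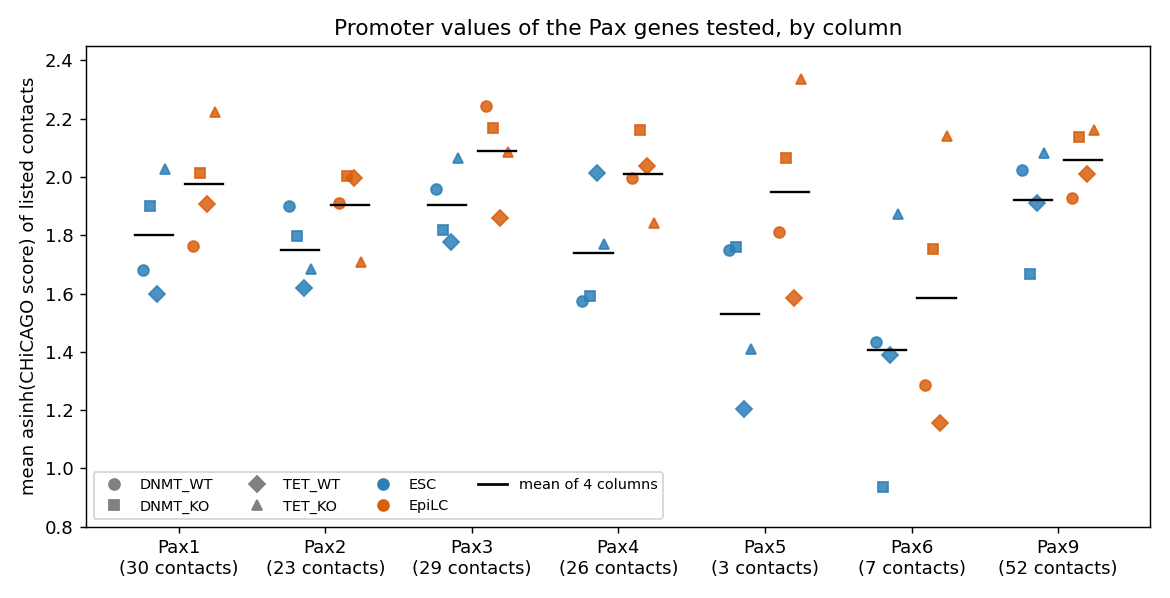
Promoter values of the 7 Pax genes tested. The vertical axis is the mean asinh(score) over the contacts scored in every column after quantile normalisation, points are the 4 lines at each stage, and black bars are means of 4 columns; every EpiLC mean is above its ESC mean, and at every gene the 2 stages overlap.

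Pax1 and Pax9, which act in the sclerotome, thymus and pharyngeal pouches, had their contacts in distant blocks. The Pax1 bait (chromosome 2, 147358183 to 147361945) had 25 of its 30 contacts between 293 and 433 kb. This block lies in sequence with no annotated protein-coding gene on the way to Foxa2, the gene of a pioneer factor of endoderm and floor plate. In this block 5, 5, 0 and 16 contacts reached 5 in the ESC columns and 1, 7, 10 and 20 in the EpiLC columns. TET_KO had the most at both stages, and its median score was 6.07 in ESC and 6.25 in EpiLC against 2.94 and 4.65 in TET_WT. The strongest Pax1 contact, at 428 kb, scored 6.93, 2.00, 4.67 and 11.0 in ESC, against 4.69, 9.17, 10.0 and 12.7 in EpiLC. These columns overlap between the stages (limma, 0.46 ± 0.22 SE over 8 columns, adjusted p = 0.30).

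The Pax1 promoter values were 1.68, 1.90, 1.6 and 2.03 in ESC, against 1.76, 2.01, 1.91 and 2.22 in EpiLC. EpiLC was above ESC within each line, but the stages overlapped, and the difference of 0.18 ± 0.12 did not pass (adjusted p = 0.36 in limma). TET_KO was the highest column at each stage.

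For Pax9 (chromosome 12, 56691719 to 56695370) 29 of the 52 contacts fell inside Slc25a21, the gene of a mitochondrial carrier, at 280 to 505 kb. The contact with the promoter fragment of Slc25a21 itself had the highest mean score in the family and scored 16.2, 7.98, 14.7 and 16.3 in ESC, against 18.7, 20.5, 15.1 and 19.0 in EpiLC. It was present at both stages in all lines, with DNMT_KO ESC lowest and TET_WT EpiLC below the DNMT_WT and TET_KO values of ESC (limma, 0.31 ± 0.17, adjusted p = 0.35). Read from the Slc25a21 bait, the same pair scored 5.34, 3.80, 6.34 and 7.28 in ESC, against 9.93, 9.08, 7.01 and 8.51 in EpiLC, again with DNMT_KO ESC lowest and 1 EpiLC column below the highest ESC column (adjusted p = 0.25).

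Slc25a21 held 6 of the 8 Pax contacts that reached 5 in all columns, between 465 and 505 kb. In this gene 17, 12, 12 and 14 contacts reached 5 in ESC and 9, 11, 11 and 19 in EpiLC, and 12 of the 29 differences of EpiLC minus ESC were above 0. The differences were thus of both signs, and the lowest adjusted p in limma was 0.22. The Pax9 promoter values were 2.02, 1.67, 1.91 and 2.08 in ESC, against 1.93, 2.14, 2.01 and 2.16 in EpiLC (0.14 ± 0.12, adjusted p = 0.46). DNMT_WT was lower in EpiLC than in ESC and the other lines were higher, DNMT_KO by 0.47.

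**Figure D2:**
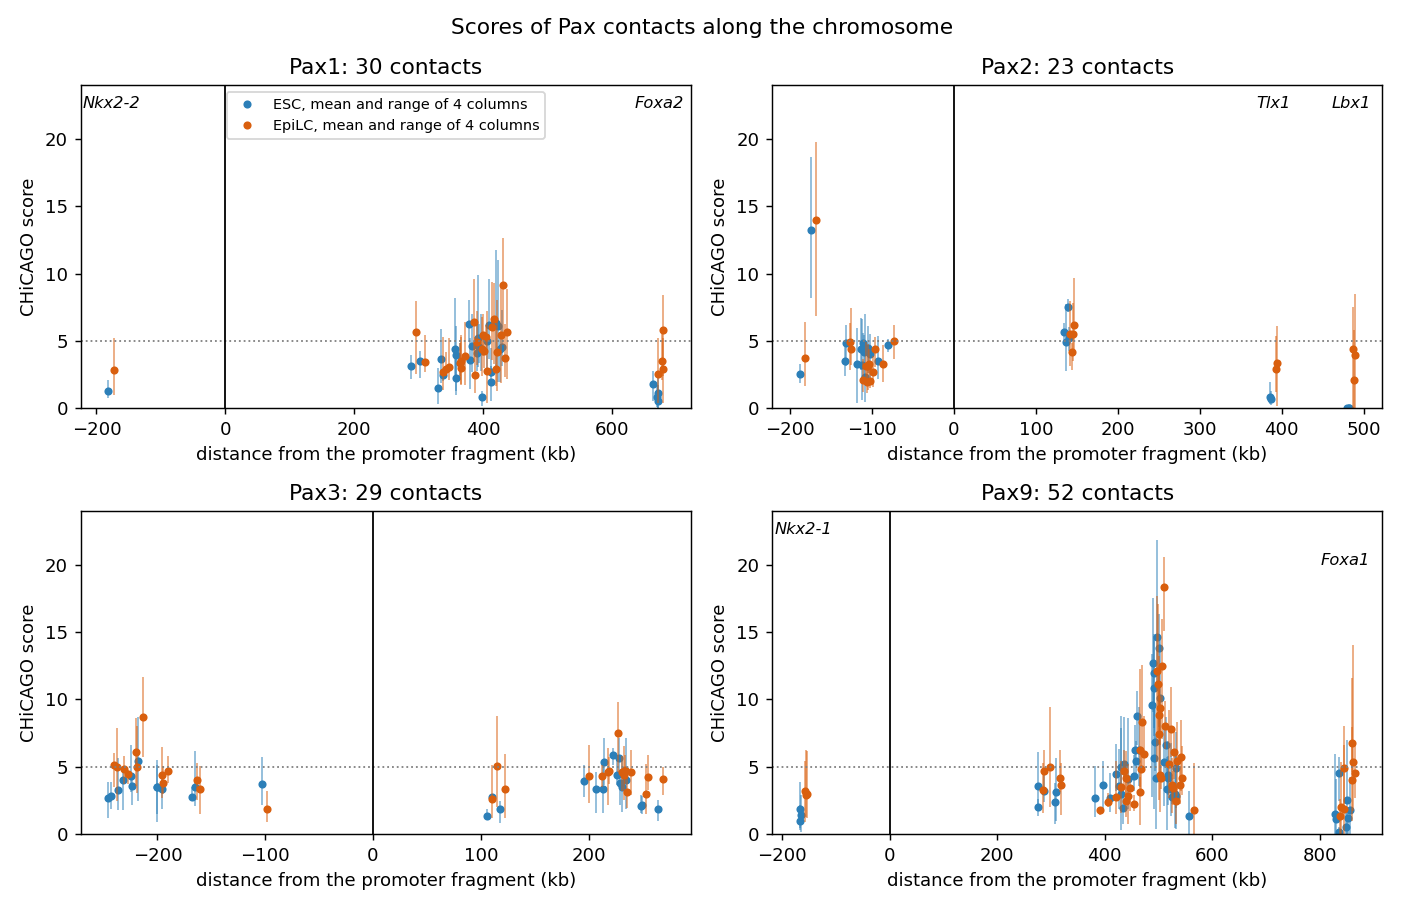
Scores along the chromosome for Pax1, Pax2, Pax3 and Pax9. The horizontal axis is the distance from the promoter fragment in kb, points are means of 4 columns at each stage, vertical lines run from the lowest to the highest column, and the dotted line is a score of 5; ESC points are drawn slightly to the left of EpiLC points, and contacts beyond the axis are left out. The Slc25a21 block of Pax9 is high at both stages, and the contacts near Lbx1 are near 0 in ESC.

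Pax2, Pax5 and Pax8 act in the kidney, B cells and thyroid respectively. The strongest Pax2 contact lay at -171 kb, 6.24 kb from Hif1an, the gene of an asparaginyl hydroxylase that inhibits hypoxia-inducible factor. It scored 18.7, 12.7, 8.18 and 13.2 in ESC, against 6.87, 13.8, 19.8 and 15.4 in EpiLC. All 8 columns were past 5, and the wild-type lines moved in opposite directions, DNMT_WT down and TET_WT up (limma, 0.02 ± 0.20, adjusted p = 0.97). A second block of 4 contacts at 138 to 143 kb had ESC medians of 5.69, 4.61, 5.48 and 6.88 and EpiLC medians of 4.15, 3.75, 6.71 and 6.70, so that only the DNMT lines and TET_KO were lower in EpiLC. The Pax2 promoter values were 1.90, 1.80, 1.62 and 1.68 in ESC, against 1.91, 2.00, 2.00 and 1.71 in EpiLC (0.16 ± 0.13, adjusted p = 0.47), and the difference was -0.08 when the median of the contacts replaced their mean.

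All 3 Pax5 contacts lay inside Zcchc7, the neighbouring gene of an RNA-processing factor, at 44.1 to 198 kb. At the Zcchc7 promoter fragment the scores were 2.91, 2.33, 2.55 and 2.68 in ESC, against 2.68, 5.38, 3.63 and 5.43 in EpiLC. No Pax5 contact reached 5 in an ESC column, and 5 values did so in EpiLC, 2 in DNMT_KO and 3 in TET_KO. The promoter values were 1.75, 1.76, 1.20 and 1.41 in ESC, against 1.81, 2.07, 1.59 and 2.34 in EpiLC. This was the largest stage difference of the 7, at 0.42 ± 0.16, with each line higher in EpiLC, but the stages overlapped and the adjusted p in limma was 0.10. Without TET_KO it was 0.25, below the 0.34 of Pax4, and with the wild-type lines only it was 0.22, as at Pax4. The only Pax8 contact joined the promoter to the Gm13415 promoter fragment inside the Pax8 gene, at -33.5 kb, and scored 5.70, 6.04, 2.88 and 4.73 in ESC, against 5.39, 3.97, 3.23 and 4.21 in EpiLC (adjusted p = 0.73), with both TET_WT columns lowest.

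Pax3 and Pax7 act in neural crest and muscle progenitors. On chromosome 1 the Pax3 bait (78196361 to 78197158) had 13 contacts at -243 to -100 kb, 6 inside Sgpp2, a sphingosine phosphatase gene, and 9 inside Farsb, the gene of a phenylalanyl-tRNA synthetase subunit. The strongest, at -216 kb, scored 7.53, 2.98, 2.496 and 8.72 in ESC, against 8.85, 8.44, 5.74 and 11.6 in EpiLC. Each line was higher in EpiLC, although the ESC values of DNMT_WT and TET_KO exceeded the EpiLC value of TET_WT (limma, 0.53 ± 0.18, adjusted p = 0.16). A Farsb contact at 252 kb scored 2.302, 1.52, 1.96 and 2.83 in ESC, against 3.55, 4.26, 3.25 and 5.88 in EpiLC, and here the stages did not overlap (0.56 ± 0.28, adjusted p = 0.33).

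From the bait of the Farsb promoter, the contact with the Pax3 fragment scored 5.85, 2.32, 4.77 and 7.08 in ESC, against 9.53, 17.1, 11.4 and 11.7 in EpiLC. Every EpiLC column was above every ESC column, and at 0.92 ± 0.20 this contact came closest to the threshold of all those that involve a Pax fragment (adjusted p = 0.054 in limma). The Pax3 promoter values were 1.96, 1.82, 1.78 and 2.07 in ESC, against 2.25, 2.17, 1.86 and 2.09 in EpiLC (0.19 ± 0.11, adjusted p = 0.28), the TET lines having moved by 0.08 and 0.02 and the DNMT lines by 0.29 and 0.35.

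Another 17 Pax3 contacts joined chromosome 4, between 141300907 and 141565478, over Epha2, Hspb7 and Spen. Spen, the gene of a transcriptional corepressor, held 10 of them. None had a score in a TET column. Of the DNMT columns, ESC had 0 (DNMT_WT) and 1 (DNMT_KO) at 5 or more, EpiLC had 9 and 11, and the highest score was 30.6, of DNMT_KO at D2. They belong to a wider set: of 434 contacts between chromosomes 1 and 4, 408 joined 77 to 80 Mb of chromosome 1 with 140 to 143 Mb of chromosome 4, from 24 baits, with 7, 138, 0 and 0 at 5 or more in the ESC columns and 324, 156, 0 and 0 in the EpiLC columns. Whether the DNMT lines carry a rearrangement that joins these regions was not tested, so these Pax3 scores are not read here as contacts between separate chromosomes. Without these 17 contacts the family ratio of EpiLC to ESC was 1.44.

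The Pax7 bait (chromosome 4, 139830026 to 139834963) had a contact at -4688 kb inside Runx3, the gene of a Runt-domain factor. It scored 5.08 in the EpiLC column of DNMT_WT, 0 in the other DNMT columns, and had no score in the TET columns. On chromosome 4 as a whole, contacts over 1 Mb numbered 308, 2581, 190 and 246 at 5 or more in the ESC columns and 3668, 3245, 332 and 410 in the EpiLC columns, so that the DNMT_WT ESC column stood with the TET columns and apart from the other DNMT columns. Both Pax7 contacts within 1 Mb had 1 column each past 5, the one at -125 kb in DNMT_KO ESC and the one at -268 kb in TET_WT ESC.

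Pax4 and Pax6 act in pancreatic islets, and Pax6 also in the eye and the forebrain. All 26 Pax4 contacts lay to higher coordinates, 11 inside Snd1, the gene of a nuclease and transcriptional coactivator, and the other 15 beyond it to 694 kb. At 5 or more they numbered 3, 1, 8 and 4 in ESC, against 9, 11, 10 and 10 in EpiLC, higher in EpiLC in every line. The strongest, inside Snd1 at 460 kb, scored 5.39, 6.73, 11.0 and 6.96 in ESC, against 9.29, 6.45, 9.48 and 7.85 in EpiLC. It was past 5 in all columns with no shift between the stages beyond the spread of the lines (limma, 0.10 ± 0.16, adjusted p = 0.78).

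Pax4 had 3 of the 4 Pax contacts at which all EpiLC columns lay above all ESC columns. At 580 kb, 30.2 kb from Lep, the leptin gene, the scores were 1.00, 0.739, 1.35 and 1.90 in ESC, against 5.80, 5.48, 5.22 and 3.86 in EpiLC. This was the lowest adjusted p of the 173 Pax contacts tested (1.19 ± 0.32, adjusted p = 0.096 in limma). At 406 kb, inside Snd1, they were 1.20, 2.56, 3.62 and 3.68 in ESC, against 4.38, 3.78, 6.59 and 6.43 in EpiLC (adjusted p = 0.22). At 518 kb they were 2.23, 1.28, 3.18 and 3.78 in ESC, against 3.69, 4.17, 3.96 and 7.03 in EpiLC, where the group ranges do not quite separate before normalisation (adjusted p = 0.32). From the bait of Mir129-1, a microRNA gene beside the 580 kb contact, the Pax4 fragment scored 3.89, 0.810, 3.15 and 3.15 in ESC, against 7.10, 5.17, 3.31 and 5.37 in EpiLC, with 1 overlapping column.

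The Pax4 promoter values were 1.58, 1.59, 2.01 and 1.77 in ESC, against 2.00, 2.16, 2.04 and 1.84 in EpiLC. The DNMT lines differed between stages by 0.42 and 0.57 and the TET lines by 0.02 and 0.07, so that the stages overlapped through TET_WT (0.27 ± 0.13, adjusted p = 0.19). The test of the difference between the line families gave -0.45 ± 0.24 for TET minus DNMT (adjusted p = 0.68 in limma).

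Pax6 had 7 contacts, all at 325 to 532 kb, in or near Dcdc5, a doublecortin-domain gene, and at Dnajc24, a co-chaperone gene. The strongest, at 416 kb, scored 5.52, 2.46, 2.27 and 3.26 in ESC, against 5.36, 2.63, 5.02 and 5.49 in EpiLC. DNMT_KO was below DNMT_WT at both stages, but in ESC the lowest column was TET_WT. The promoter values were 1.43, 0.937, 1.39 and 1.87 in ESC, against 1.29, 1.75, 1.16 and 2.14 in EpiLC. Both wild-type lines were lower in EpiLC and both knock-out lines higher, and the stage difference of 0.18 ± 0.20 turned to -0.04 without DNMT_KO. From the bait of Gm13954, the Pax6 fragment at -41.2 kb scored 5.20, 3.57, 1.47 and 5.46 in ESC, against 2.503, 4.11, 2.16 and 5.77 in EpiLC, with TET_WT lowest at both stages.

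Contact by contact, 0 of the 173 Pax contacts tested passed an adjusted p of 0.05 in limma, beside 0.315% of the 244865 contacts tested, and 17 had an unadjusted p under 0.05, as had 16.6% of all contacts tested. All EpiLC columns were above all ESC columns at 4 of them (2.31%, beside 3.95% of all) and below at 0 (beside 4.78%). Among the 12 tested contacts of other baits with a Pax fragment as the other end, 0 passed, 5 had an unadjusted p under 0.05 (beside the same 16.6%) and 8 had a difference above 0.

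A subset of the Pax contacts ended near another gene of a developmental transcription factor. By a rule set after the values had been seen, 24 Pax contacts had an other end within 20 kb of a homeobox, forkhead, Runx, T-box, Gata, Sox or Pax gene or Fev. Of these, 21 reached 5 in EpiLC columns only (87.5%, beside 29.3% of all listed contacts). The highest score was in a DNMT EpiLC column at 22 of them (91.7%, beside 22.6%). Among the 22 was the Pax7 contact inside Runx3, which had no score in a TET column. Of all chromosome 4 contacts over 1 Mb, 68% had their highest score in a DNMT EpiLC column. Contacts are listed only if they reach 5 in some column, so many of the 24 entered through the columns in which they are high. At 5 or more the 24 contacts numbered 1, 0, 2 and 2 in ESC, against 8, 17, 3 and 1 in EpiLC. The total went from 5 to 29, a ratio of 5.8, which was 2.4 without DNMT_KO and 9.33 without TET_KO.

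Pax2 and Lbx1, the homeobox gene of migrating muscle precursors, made 3 of these contacts at 484 to 486 kb. The fragment that overlaps Lbx1 scored 0, 0, 0 and 0.242 in ESC, against 7.54, 6.81, 3.21 and 0 in EpiLC. It was near 0 in all ESC columns and in TET_KO EpiLC (limma, 1.76 ± 0.60, adjusted p = 0.17). Both contacts of Pax2 near Tlx1, a homeobox gene of spleen and hindbrain, also had their highest score in DNMT_WT EpiLC, at 5.34 and 6.11, and TET_KO EpiLC was at 1.28 and 0.194.

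Pax1 and Foxa2 made 4 contacts at 668 to 676 kb. The one at 676 kb scored 0.331, 2.32, 0 and 1.80 in ESC, against 4.94, 8.44, 7.42 and 2.41 in EpiLC. Each EpiLC value exceeded all ESC values of the table, but not after normalisation between columns (1.47 ± 0.40, adjusted p = 0.098). From the Foxa2 bait the Pax1 fragment scored 1.05, 4.83, 3.26 and 2.27 in ESC, against 10.1, 7.99, 5.08 and 2.07 in EpiLC, with TET_KO the only line that was not higher. The Pax1 contact at Nkx2-2, a homeobox gene of the ventral neural tube and islets, lay at -177 kb and reached 5 in DNMT_KO EpiLC alone, at 5.24.

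Pax9 and Foxa1, the paralogue of Foxa2, made 8 contacts at 833 to 860 kb. The one at 858 kb scored 1.57, 0, 1.54 and 1.59 in ESC, against 3.64, 14.0, 1.87 and 1.75 in EpiLC, so that DNMT_KO went from the lowest column to the highest. The contact at 840 kb, with the highest mean of the 8, scored 5.07, 2.44, 5.70 and 5.06 in ESC, against 5.64, 2.26, 8.04 and 3.75 in EpiLC, past 5 at both stages and lowest in DNMT_KO at each. The contact at 833 kb was past 5 in TET_KO ESC alone, at 5.93. From the Foxa1 bait the Pax9 fragment scored 6.04, 0, 5.92 and 7.93 in ESC, against 6.73, 18.8, 11.8 and 10.5 in EpiLC, higher in EpiLC in each line (limma, 1.17 ± 0.37, adjusted p = 0.15). The 3 contacts with Nkx2-1, a homeobox gene of thyroid, lung and forebrain, lay at -163 to -160 kb and were highest in DNMT_KO EpiLC, at 5.42, 6.25 and 6.17.

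The far ends gave the highest score of the subset, at Fev, which the rule names singly and not as part of a family. Pax3 and Fev, the gene of an ETS factor of serotonergic neurons, are 3311 kb apart, and their contact had no score in DNMT_WT ESC, 0 in the other ESC columns, and 5.14, 19.4, 0 and 0 in EpiLC. Read from the Fev bait it scored 1.74, 15.2, 0 and 0 in EpiLC. Only DNMT_KO was past 5 from both baits.

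**Figure D3:**
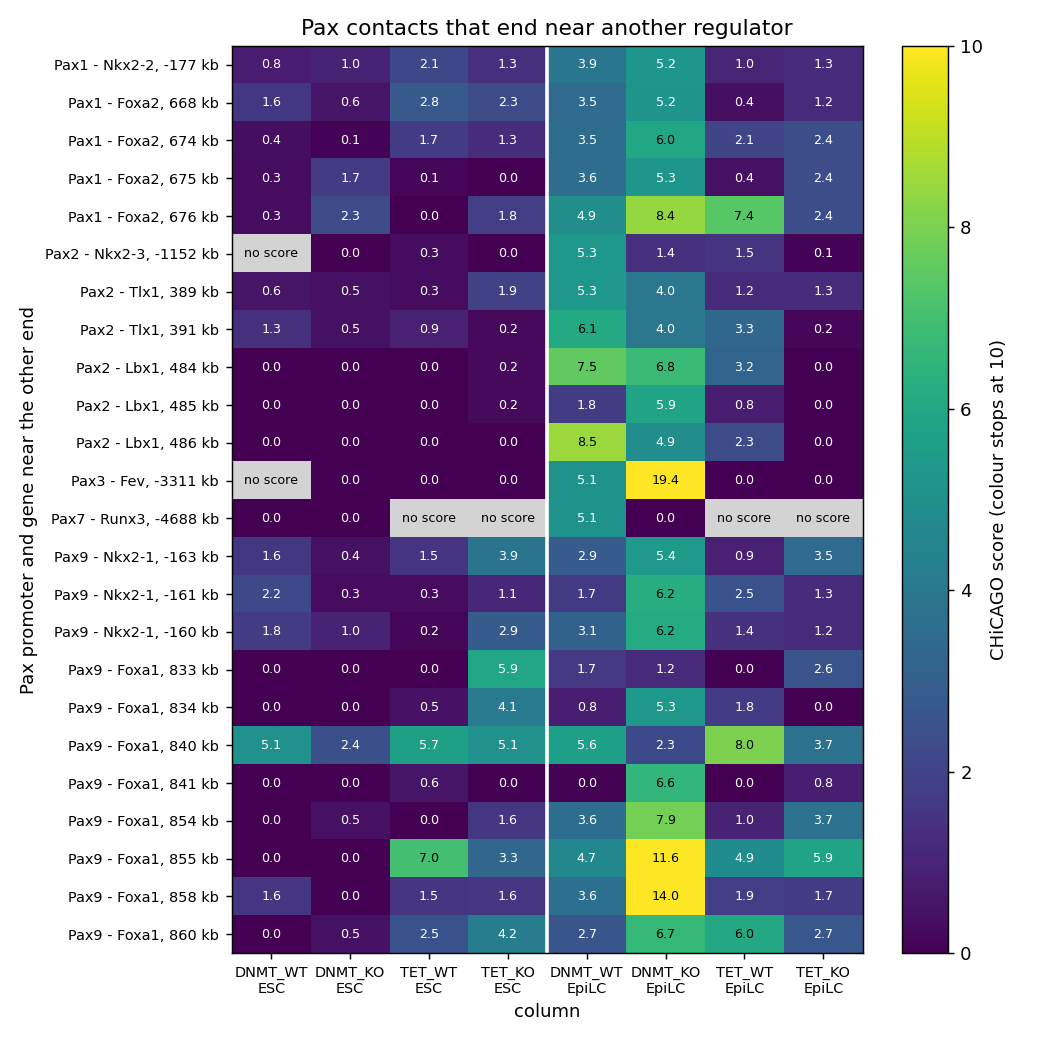
Scores of the 24 Pax contacts that end within 20 kb of another developmental regulator. Each row is a contact with its distance in kb, each column of the map is a line and stage, the colour and the printed value are the CHiCAGO score, and grey marks no score; the DNMT EpiLC columns hold 22 of the 24 highest scores.

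The same counts were taken for baits of other developmental regulators, and the difference between the sets was not tested. These baits had 168 contacts with a regulator at the other end, of which 78.6% reached 5 in EpiLC columns only and 77.4% had their highest score in a DNMT EpiLC column, with 23, 12, 12 and 15 at 5 or more in ESC and 95, 100, 22 and 31 in EpiLC. All baits other than Pax, with these 168 contacts included, had 2259 contacts with such an end, of which 36.8% reached 5 in EpiLC only. Pax contacts on the same chromosome without a regulator at the end numbered 156, of which 34.6% did. Since a contact is listed only if it reaches 5 in some column, many of these entered through the DNMT EpiLC columns in which they are high, so the shares describe the listed contacts alone. The excess in DNMT over TET columns was not tested contact by contact, and the line family cannot be told apart from the parental line.

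**Figure D4:**
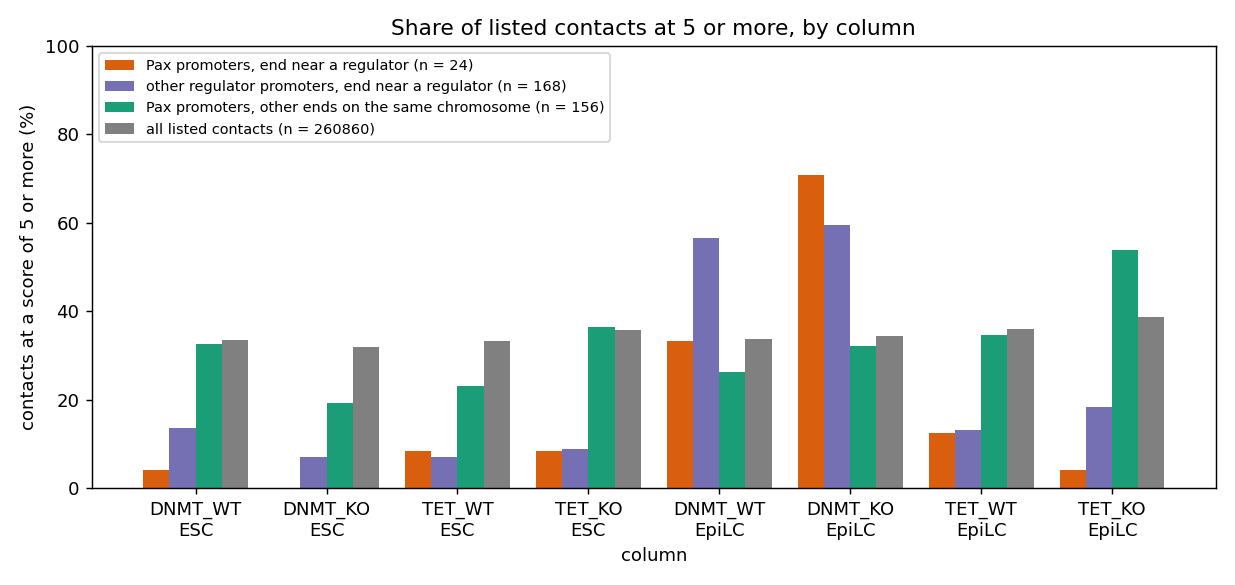
Share of listed contacts at a score of 5 or more, in percent, in each column, for 4 sets of contacts. Pax contacts near a regulator are at 33.3% and 70.8% in the DNMT EpiLC columns and at 12.5% or less elsewhere, other regulator promoters show 56.5% and 59.5% there, and all listed contacts lie between 31.9% and 38.6%.

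Loss of the methyltransferases was compared over both stages as DNMT_KO minus DNMT_WT. None of the 7 Pax promoters passed, as for 0% of all promoters in limma. An unadjusted p under 0.05 was seen at 0 of the 7, beside 520 of all promoters (3.32%). The Pax differences ran from -0.11 at Pax3 to 0.24 at Pax1, and adjusted p was 0.9995 or more. Within ESC the difference was -0.49 at Pax6 and -0.36 at Pax9, and within EpiLC it was 0.47 and 0.21, so that the sign turned between the stages at both genes.

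For TET_KO minus TET_WT, 0 of 7 passed, beside 0.21% of all promoters, and 3 had an unadjusted p under 0.05, as had 14.9% of all. The difference was above 0 at 5 of 7, with a median of 0.26 beside 0.00 over all promoters. It was 0.74 ± 0.29 at Pax6 (adjusted p = 0.25), 0.48 ± 0.23 at Pax5 (0.33) and 0.37 ± 0.17 at Pax1 (0.32), and TET_KO was higher at each stage in these 3 genes. It was -0.22 at Pax4 and -0.11 at Pax2. The Pax6 contact at 379 kb scored 0.655 in TET_WT and 5.40 in TET_KO in ESC, and 0.466 and 3.29 in EpiLC, and the Pax1 contact at 433 kb scored 3.18 and 7.32 in ESC and 3.42 and 8.88 in EpiLC. In both contacts TET_KO was higher at both stages.

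Between the wild-type lines, TET_WT minus DNMT_WT passed at 0 of 7 Pax promoters, beside 0.0191% of all, with 0 unadjusted, and ran from -0.39 at Pax5 to 0.24 at Pax4. These parental lines thus differed at Pax5 by about as much as the stages did. The stage difference of the TET lines minus that of the DNMT lines passed at 0 of 7 Pax promoters and at 0% of all. An unadjusted p under 0.05 was seen at 0 of the 7, beside 1222 of all promoters (7.79%).

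Genes that act with Pax factors were taken from a list of 59 in 9 groups, of which 41 had a promoter that could be tested. In EpiLC against ESC, 3 rose, beside 3.73% of all promoters, and 3 fell, beside 5.14%, with a median difference of -0.05. Six4, a Pax-Six-Eya-Dach network gene, rose by 0.52 ± 0.13 (adjusted p = 0.023 in limma), Zic1, a neural crest specifier, rose by 1.03 ± 0.29 and Nkx2-2 rose by 0.44 ± 0.11. Mitf, the pigment cell regulator and a target of Pax3, fell by 0.75 ± 0.12 (adjusted p = 0.0055). The muscle factor Myog fell by 0.51 ± 0.11 and the B cell regulator Ikzf1 fell by 0.86 ± 0.18. Of the 9 network genes tested 1 rose, and of 5 kidney, 5 thyroid, 4 sclerotome and tooth genes and 1 eye gene none passed in this fit. Between the knock-outs and their parents, 0 partner promoters passed in either family.

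The promoter on another chromosome whose values over the 8 columns were most like those of each Pax promoter, by Pearson correlation, was Map3k9 for Pax1 (0.972), U6.683 for Pax2 (0.963), Olfr459 for Pax3 (0.966), Pcgf2 for Pax4 (0.981), SNORA61.8 for Pax5 (0.979), Dmrt2 for Pax6 (0.964) and Phc1 for Pax9 (0.985). These are the highest of 15677 promoters over columns that share libraries and baits, and are given as a description.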

How the data were processed

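The 16 samples are promoter capture Hi-C libraries. The submitters' processing notes name Trim Galore 0.6.5, cutadapt 2.3 and GRCm38. The aligner, the CHiCAGO version and the way replicates were joined: not given in the sources used here. In 1 table the authors deposited CHiCAGO scores, with 1 column per line and stage, so read depth is unknown. Between 253416 and 257794 contacts were scored per column, with medians of 3.66 to 4.23.

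Scores were asinh-transformed and then quantile-normalised between columns. Promoter values, means over at least 3 contacts scored in every column, and the 244865 same-chromosome contacts so scored were fitted with limma 3.58.1 in R 4.3.3 (line and stage, eBayes with trend), with Benjamini-Hochberg adjustment over all features at 0.05. Differences are given ± SE over 8 columns. In simulated data with 200 promoters changed, 3 of 50 changed by 0.4, 25 of 50 by 0.8 and 49 of 50 by 1.6 were called. Genes at contact ends are the protein-coding genes of RefSeq (GRCm38.p6).

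Members and lists were chosen with earlier results of these data known. Named contacts are the strongest, those separated by stage, those differing most in a knock-out at both stages, and those ending at baits, beyond 1 Mb or on another chromosome. Alternatives were other scalings, minimum contacts, the median, distance limits, thresholds, no line block and leaving out lines. Part of the Pax7 contacts is not reported here.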

Additional observations from a re-analysis of the deposited data

Results flagged for a closer look

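The stage difference at the Pax6 promoter had opposite signs in the knock-out and the wild-type lines: EpiLC minus ESC was 0.81 in DNMT_KO and 0.27 in TET_KO, against -0.15 in DNMT_WT and -0.23 in TET_WT. In an interaction test added after seeing the data, limma gave 0.73 ± 0.38 for knock-out minus wild-type lines (adjusted p = 0.998 over all promoters, of which 0 passed). The value rests on 7 contacts. A gap of 1 column from the others of its stage was looked for in 26 sets of 4 columns and found in 0.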

How the results depend on the processing

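The counts of Pax promoters and Pax contacts past the threshold were 0 under all alternatives run in limma. The stage difference kept its sign at Pax1, Pax3, Pax4, Pax5 and Pax9, but not its size: at Pax9 it was 0.029 without DNMT_KO and 0.0042 with the wild-type lines only, at Pax5 0.25 without TET_KO, and at Pax4 0.17 without DNMT_KO. With the median of the contacts it turned to -0.082 at Pax2, DNMT_KO minus DNMT_WT turned to 0.042 at Pax6 and TET_KO minus TET_WT to -0.025 at Pax9. At Pax6 the stage difference was -0.19 with the wild-type lines only and from -0.037 (without DNMT_KO) to 0.31 (without TET_WT) leaving out 1 line; the cause was not tested. Over all promoters the stage calls, 1391 in the main setting, were 21 with a minimum of 1 contact, 619 with the median, 522 with no line block, 29 with wild-type lines only, 0 with the number of contacts at 5 or more, and 25 to 615 leaving out 1 line. Over all contacts the 771 calls became 243 with no line block, 0 with wild-type lines only and 0 to 13 leaving out 1 line. The TET_KO calls, 33 over all promoters, were 11 after division by the column mean, 0 with a minimum of 1 contact and 0 with the median. The ratio of EpiLC to ESC contacts lay between 1.10 and 1.72. With 1 column per group, small changes can be missed. The simulated recovery above sets no limit for these data, since it had 200 changed promoters, whereas 1391 passed here. Among those that passed were Nkx2-2 at 0.44 and Six4 at 0.52. No paired analysis was possible because the columns carry no replicate number; the stages are paired within lines by the line block.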
